A study of Mus musculus with 8 samples.

Results

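The 31 genes described here encode enzymes and regulators of sterol and fatty acid synthesis, and they were taken from 19255 genes tested on the arrays. They were chosen by name: array probes were matched by accession to the gene symbols, and each gene was read from its brightest probe. All 31 genes were well above background in both dyes on 8 of 8 arrays, so none was lost to the filter on dim probes. By role, 7 act in the mevalonate pathway, 11 between farnesyl diphosphate and cholesterol, 8 in fatty acid synthesis, and 5 regulate these pathways or move sterols.

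RNA came from mouse small intestinal organoids, epithelial cultures that self-organise in Matrigel, of 2 wild-type lines established separately. Control organoids of each line were set beside organoids given CHIR99021 (3 µM), VPA (valproic acid, 1 mM) or the 2 together for 6 days. CHIR99021 blocks the kinase GSK3 and thereby activates Wnt signalling, and VPA inhibits histone deacetylases. Each of the 8 arrays compared a sample in the red dye Cy5 with control RNA of the same line in the green dye Cy3, and the control arrays held control RNA in both dyes. The dyes were not swapped, and each slide held 1 line, so line and slide cannot be told apart.

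Cells build cholesterol from acetyl-CoA through mevalonate and squalene, and fatty acids from the same precursor through malonyl-CoA. When sterols run low in the endoplasmic reticulum, the membrane-bound factors SREBP1 and SREBP2, encoded by Srebf1 and Srebf2, are carried to the Golgi and cut, and the released part switches on most genes of both routes. INSIG proteins hold SREBPs back when sterols are plentiful, and the factors NF-Y, which binds CCAAT, and Sp1 often bind beside SREBP in these promoters. The intestine makes cholesterol as well as absorbing it.

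Promoter sequences were available for 25 of the 31 genes in a RefSeq table (GRCm38.p6), and 6 are shown. Of these, Cyp51, Lss and Tm7sf2 had the order of the lines described below, while Hmgcs1, Acacb and Me1 did not. A link between promoter letters and that order was not tested. In the 250 bases before the start site, the letters CCAAT, read on either strand, were present in 21 of the 25 genes (84%), against 37.5% of the 27025 genes in the table and 40.1% of the 11178 tested genes with a promoter. The 4 without it were Acaca, Acat2, Acly and Elovl6. GGGCGG, the Sp1 letters, was present in 20 of 25 (80%), against 35.4% and 58.5%. A core form of the sterol response element, TCACNCCAC, was found in 1 gene, Hmgcs1 (4%, against 1.22% and 1.33%), and the longer form of the LDL receptor gene in 0 (0.0814% of all genes). These matches describe letters in the window and are not binding sites. Sqle, Fdps, Stard4, Fdft1, Scd2 and Scd1 had no entry.

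The promoters below belong to 4 sterol enzymes and to the 2 genes with the largest VPA responses. They run 5′ to 3′ on the strand of the gene and end at the base before the start site, with CCAAT (or ATTGG, the same letters on the other strand) and TCACNCCAC in capitals. Cyp51 lies at chr5:4104698-4104947 on the minus strand, Lss at chr10:76531355-76531604 on the plus strand, Hmgcs1 at chr13:119690101-119690350 on the plus strand and Tm7sf2 at chr19:6067851-6068100 on the minus strand. Acacb lies at chr5:114165268-114165517 on the plus strand, and the first of 2 listed promoters of Me1 at chr9:86695915-86696164 on the minus strand.
Cyp51: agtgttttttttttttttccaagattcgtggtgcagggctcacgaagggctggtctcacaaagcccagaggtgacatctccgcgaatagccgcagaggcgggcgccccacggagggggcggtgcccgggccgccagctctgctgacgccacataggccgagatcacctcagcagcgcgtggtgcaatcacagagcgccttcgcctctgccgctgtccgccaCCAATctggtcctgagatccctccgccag
Lss: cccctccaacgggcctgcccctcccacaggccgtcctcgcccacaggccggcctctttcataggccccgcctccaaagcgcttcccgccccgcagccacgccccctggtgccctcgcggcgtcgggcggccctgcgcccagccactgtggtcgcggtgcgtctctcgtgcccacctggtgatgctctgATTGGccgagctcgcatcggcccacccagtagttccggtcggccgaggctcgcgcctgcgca
Hmgcs1: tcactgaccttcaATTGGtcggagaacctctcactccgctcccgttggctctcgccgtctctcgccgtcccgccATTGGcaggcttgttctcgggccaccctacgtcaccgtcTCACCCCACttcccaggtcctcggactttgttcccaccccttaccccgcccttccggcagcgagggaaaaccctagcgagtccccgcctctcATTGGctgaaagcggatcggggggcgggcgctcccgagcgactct
Tm7sf2: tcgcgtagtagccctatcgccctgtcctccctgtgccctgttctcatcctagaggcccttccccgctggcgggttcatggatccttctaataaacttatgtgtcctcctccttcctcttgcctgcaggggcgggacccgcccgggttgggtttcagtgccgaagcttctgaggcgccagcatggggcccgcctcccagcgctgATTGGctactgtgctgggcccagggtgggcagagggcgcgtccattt
Acacb: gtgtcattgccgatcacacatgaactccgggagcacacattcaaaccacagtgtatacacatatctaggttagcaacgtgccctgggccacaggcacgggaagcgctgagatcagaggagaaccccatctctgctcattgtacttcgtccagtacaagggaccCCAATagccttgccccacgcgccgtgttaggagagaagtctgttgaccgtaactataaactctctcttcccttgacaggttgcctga
Me1: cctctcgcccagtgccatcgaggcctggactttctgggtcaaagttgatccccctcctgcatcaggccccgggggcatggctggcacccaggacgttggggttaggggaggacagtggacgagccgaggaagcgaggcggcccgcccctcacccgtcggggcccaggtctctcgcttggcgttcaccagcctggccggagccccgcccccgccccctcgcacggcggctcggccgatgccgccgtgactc
Hmgcs1 holds 3 CCAAT matches and the element, the other sterol enzymes shown and Acacb hold 1 CCAAT match each, and this Me1 promoter holds 0, while the other listed one holds 1.

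The arrays had between 60.6% and 64.6% of spots well above background in Cy5, and no spot was saturated. Ratios below are log2 Cy5 over Cy3, and a change is the difference of treated and control ratios, as log2 ± SE over 2 arrays a group. A gene is said to have risen or fallen where limma's adjusted p over all 19255 genes was under 0.05. With 2 lines, p-values measure only the spread between those lines, and each control array held the same RNA in both dyes, so differences between control cultures are not in the spread. Markers of the labelled tissue were present: 12 of 12 enterocyte, 9 of 10 stem cell, 6 of 8 Paneth cell and 6 of 8 goblet cell markers were among the tested genes. In whole organoids, fewer cells of a type and less RNA per cell cannot be told apart.

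Against control, few of the 31 genes passed the test. With CHIR99021, 0 rose and 0 fell by limma, while among all genes 0.114% rose and 1.01% fell (1.12% called), and 1 member (3.23%) had an unadjusted p under 0.05, against 12.8% of all genes. With VPA, 3 rose and 0 fell, against 6.58% and 4.27% of all genes (10.9% called). With both compounds, 1 rose and 1 fell, against 8.43% and 7.09% (15.5% called). With the line as a replicate block, the test called 0 members with CHIR99021 (2.89% of all genes), 6 with VPA (4 rose, 2 fell; 19.4%) and 5 with both (3 rose, 2 fell; 25%). Medians over the 31 genes were 0.07, -0.02 and 0.05 in the 3 comparisons, beside 0.01, 0.00 and 0.01 over all genes tested. Line by line the medians were 0.43, 0.28 and 0.28 in line 1 and -0.23, -0.35 and -0.18 in line 2.

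The treated ratios of the lines stood apart for most of the genes. In 19 of 31 genes (61.3%), the 3 treated ratios of line 1 all lay above the 3 of line 2, against 9.59% of all genes tested. The reverse order held for 0 of 31 genes, against 9.2% of all genes. Treated ratios lay above the control ratio of line 1 on 3 of 3 arrays, and below that of line 2 on 3 of 3, for 12 of the 31 genes, against 3.1% of all genes. These counts were chosen after the data were seen, and the difference was not tested, since a line has 1 array a group. The 3 ratios of a line also share 1 control RNA and 1 slide, so they are not separate support.

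**Figure D1:**
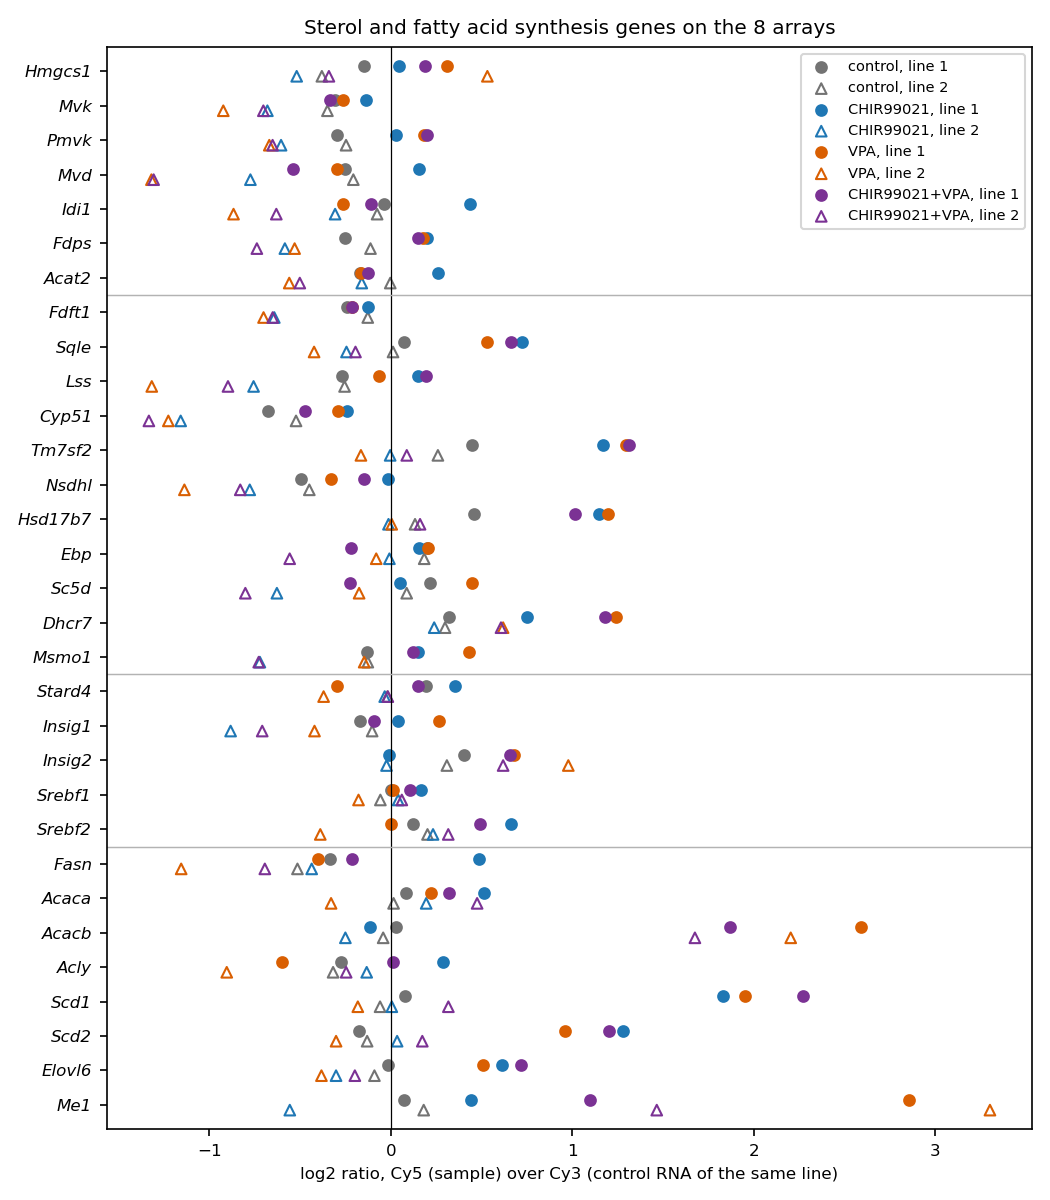
Log2 ratio of Cy5 (sample) over Cy3 (control RNA of the same line) for the 31 genes on the 8 arrays; filled circles are line 1, open triangles line 2, colours the 4 groups, and grey lines part the genes by role (mevalonate pathway, squalene to cholesterol, regulators and sterol transport, fatty acid synthesis). The coloured circles lie right of the coloured triangles for 19 of 31 genes. Each grey control symbol sets control RNA against the same RNA in the other dye. Closeness of the grey symbols therefore does not compare the control RNA of the lines.

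In the mevalonate pathway, 0 of 7 genes passed in any comparison with control. In 5 of 7 (71.4%) the treated ratios of line 1 all lay above those of line 2, against 9.59% of all genes. With CHIR99021, 7 of 7 lay above control in line 1 (median 0.41) and 7 of 7 below it in line 2 (median -0.33). Over all genes, 51.3% lay above control in line 1 and 51.2% in line 2. Fdps, which makes farnesyl diphosphate, read -0.25 in control, 0.20 with CHIR99021, 0.18 with VPA and 0.15 with both in line 1. In line 2 its ratios were -0.11, -0.58, -0.53 and -0.74. Line 1 thus read above its control on 3 arrays and line 2 below, and the fitted change was -0.01 ± 0.39 with CHIR99021 (adjusted p = 0.996). Pmvk, the kinase that adds the phosphate to phosphomevalonate, read 0.03, 0.18 and 0.20 under the same treatments in line 1 (control -0.30) and -0.61, -0.67 and -0.65 in line 2 (control -0.25).

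Mvd decarboxylates mevalonate diphosphate. Its ratios were 0.15, -0.30 and -0.54 in line 1 (control -0.26) and -0.77, -1.32 and -1.31 in line 2 (control -0.21). The lines did not overlap, yet both read lower with VPA than with CHIR99021. Idi1, the isomerase that follows it, and the mevalonate kinase Mvk also had line 1 above line 2 on all treated arrays. Both of these read lower with VPA than with CHIR99021 in each line too, as did genes outside this pathway such as Lss and Nsdhl. Hmgcs1, which makes HMG-CoA, did not follow the split with VPA: it read 0.31 in line 1 and 0.53 in line 2, from controls of -0.15 and -0.38. With CHIR99021 and with both, it read 0.04 and 0.19 in line 1 and -0.52 and -0.34 in line 2. Its VPA change was 0.68 ± 0.24 (adjusted p = 0.131; 0.0514 with the replicate block), and its second probe read 0.35. Acat2, the cytosolic thiolase that opens the pathway, had overlapping treated ratios, but each was above its control in line 1 and below it in line 2.

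From squalene to cholesterol, 9 of 11 genes (81.8%) had treated ratios of line 1 all above those of line 2, against 9.59% of all genes. The exceptions were Ebp and Sc5d. Tm7sf2, a sterol reductase, had the widest gap of the 11 genes between line means, 1.29. It read 1.17 with CHIR99021, 1.30 with VPA and 1.31 with both in line 1 (control 0.45), and 0.00, -0.17 and 0.09 in line 2 (control 0.26). Lss, which folds squalene epoxide into lanosterol, read 0.15, -0.06 and 0.19 in line 1 (control -0.27) and -0.76, -1.32 and -0.90 in line 2 (control -0.26). Cyp51, the lanosterol demethylase, read -0.24, -0.29 and -0.48 in line 1 (control -0.68) and -1.16, -1.23 and -1.33 in line 2 (control -0.52). All treated values were thus above the control of line 1 and below that of line 2 for these 3 enzymes.

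Hsd17b7, which reduces the ketone left after demethylation, read 1.15, 1.20 and 1.02 in line 1 (control 0.46) and -0.01, 0.00 and 0.16 in line 2 (control 0.13). Line 1 was above its control on 3 treated arrays, and line 2 lay near its own. Further probes of Cyp51, Lss and Nsdhl had the same order. Line 1 exceeded line 2 in the mean treated ratio by 0.75 and 1.13 on the other Cyp51 probes, by 1.01 on the second Lss probe and by 0.74 and 0.88 on the other probes of Nsdhl, a sterol dehydrogenase. Sqle, the squalene epoxidase, read 0.72, 0.53 and 0.66 in line 1 (control 0.07) and -0.24, -0.42 and -0.20 in line 2 (control 0.01). Fdft1, which makes squalene, and Msmo1, which oxidises the methyl groups of lanosterol products, had the same order, by 0.48 and 0.77. The brightest Fdft1 probe carried this difference, while a dim probe, well above background on 5 of 8 arrays, read 0.00.

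Dhcr7, which makes cholesterol from its last precursor, was above control in both lines when VPA was present. It read 1.24 with VPA and 1.18 with both in line 1 (control 0.32), and 0.62 and 0.61 in line 2 (control 0.30). The changes of 0.62 ± 0.28 with VPA (adjusted p = 0.223) and 0.58 ± 0.28 with both (adjusted p = 0.225) did not pass. With the replicate block they did (adjusted p = 0.0371 and 0.0367). With VPA present, the lines differed in size and not in sign. With CHIR99021 alone, Dhcr7 read 0.75 in line 1, above its control, and 0.24 in line 2, slightly below its control. Its treated ratios in line 1 all lay above those in line 2.

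Ebp, the sterol isomerase, was the 1 member that fell without the block. Its ratios were 0.20 in control, 0.16 with CHIR99021, 0.20 with VPA and -0.22 with both in line 1, and 0.18, -0.01, -0.08 and -0.56 in line 2. Both combination arrays lay below all other Ebp ratios. With both compounds it fell by 0.58 ± 0.15 on the log2 scale (adjusted p = 0.0464), a call that was lost in 9 of 18 alternative settings (adjusted p from 0.00984 to 0.222), among them without either control array, either CHIR99021 array or the combination array of line 2. Sc5d, the desaturase that follows it, read -0.23 and -0.80 with both (controls 0.22 and 0.09), a change of -0.67 ± 0.31 (adjusted p = 0.21; 0.0186 with the replicate block).

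Of the regulators, Insig1, itself an SREBP target, was the 1 gene of 5 (20%) with line 1 above line 2, against 9.59% of all genes. It read 0.04 with CHIR99021, 0.26 with VPA and -0.09 with both in line 1 (control -0.17), and -0.88, -0.42 and -0.71 in line 2 (control -0.10). Insig2, the other SREBP retention factor, followed the treatments in both lines instead. It read -0.01 with CHIR99021, 0.68 with VPA and 0.66 with both in line 1 (control 0.40), and -0.02, 0.98 and 0.62 in line 2 (control 0.31). Each VPA-treated ratio lay above both controls, and both CHIR99021 ratios lay below them.

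The Insig2 rise with VPA was 0.47 ± 0.12 (adjusted p = 0.0499), and its second probe read 0.45. The call sat at the threshold and was lost in 13 of 18 alternative settings (adjusted p from 0.000729 to 0.274), among them without any 1 array except the VPA array of line 1. With CHIR99021 the value was -0.37 ± 0.12 (adjusted p = 0.246). Srebf1 and Srebf2 did not pass in any comparison. Srebf1 changed by 0.13 ± 0.10, -0.05 ± 0.10 and 0.11 ± 0.10 with CHIR99021, VPA and both, and its treated ratios overlapped between the lines. Stard4, a sterol carrier, read -0.30 and -0.37 with VPA (controls 0.19 and -0.02). Its change of -0.42 ± 0.15 (adjusted p = 0.137) passed with the replicate block (adjusted p = 0.032). The probes of Stard4 disagreed with both compounds, at -0.02 for the brightest and -0.68 and -0.70 for the others.

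In fatty acid synthesis, 2 of 8 genes rose with VPA and 1 with both compounds. Acacb, the acetyl-CoA carboxylase that makes malonyl-CoA at mitochondria, read 0.03 in control, -0.12 with CHIR99021, 2.59 with VPA and 1.87 with both in line 1. In line 2 it read -0.04, -0.25, 2.20 and 1.68. The 4 arrays with VPA lay well above the 4 without it in both lines. Acacb rose by 2.40 ± 0.15 with VPA (5.29-fold, adjusted p = 0.000922) and by 1.78 ± 0.15 with both (3.43-fold, adjusted p = 0.00129), and kept its call in 18 of 18 alternative settings for each. A dimmer second probe, well above background on 5 of 8 arrays, read -0.03 and -0.02, and with the mean of the probes the VPA value was 1.19. Acaca, the cytosolic carboxylase that feeds fatty acid synthesis, changed by -0.10 ± 0.20 with VPA (adjusted p = 0.805).

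Me1, the cytosolic malic enzyme that supplies NADPH, read 0.07, 0.44, 2.85 and 1.1 for control, CHIR99021, VPA and both in line 1. In line 2 it read 0.18, -0.56, 3.30 and 1.47. In both lines the VPA array was highest and the combination array next. Me1 rose by 2.95 ± 0.33 with VPA (7.74-fold, adjusted p = 0.0047), a call lost without either control array (adjusted p up to 0.0681). With both compounds the change was 1.16 ± 0.33 (adjusted p = 0.0595; 0.0472 with the replicate block).

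**Figure D2:**
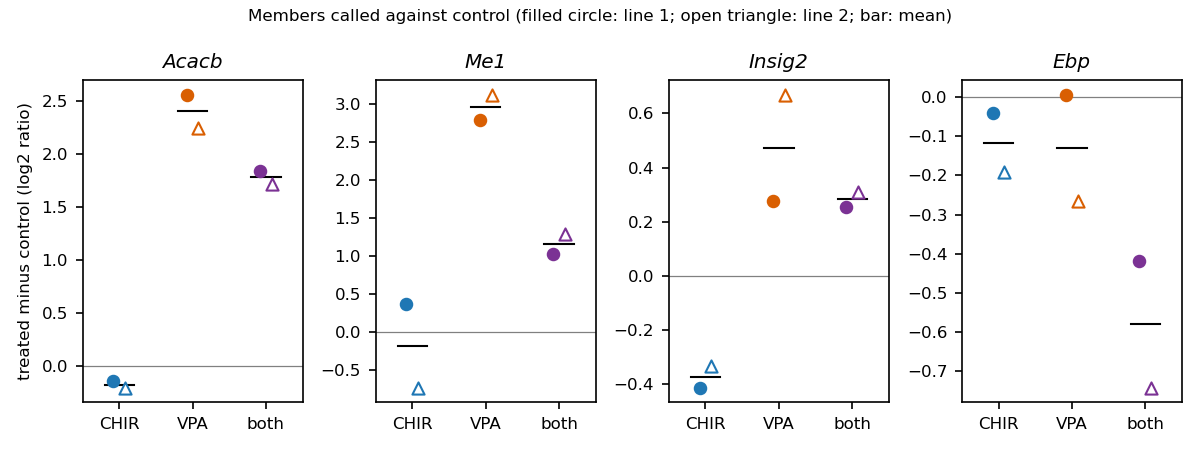
Treated minus control log2 ratio of Acacb, Me1, Insig2 and Ebp with CHIR99021 (CHIR), VPA or both; filled circles are line 1, open triangles line 2, bars the mean of the 2 lines, and each panel has its own vertical scale. Acacb and Me1 lie far above 0 in both lines with VPA, Insig2 lies below 0 with CHIR99021 and above it with VPA, and Ebp is lowest with both compounds.

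The stearoyl-CoA desaturases Scd1 and Scd2 place the double bond in oleate. In the mean treated ratio, line 1 exceeded line 2 by 1.97 for Scd1, the largest difference of the 31 genes, and by 1.18 for Scd2, the third after Tm7sf2. Scd1 read 1.83 with CHIR99021, 1.95 with VPA and 2.27 with both in line 1 (control 0.08), and 0.01, -0.18 and 0.32 in line 2 (control -0.06). Scd2 read 1.28, 0.96 and 1.20 in line 1 (control -0.18) and 0.03, -0.30 and 0.17 in line 2 (control -0.13). Line 1 was far above its control on every treated array and line 2 lay within 0.38 of it. The Scd1 changes of 0.91 ± 0.94, 0.87 ± 0.94 and 1.28 ± 0.94 did not pass (adjusted p = 0.791, 0.628 and 0.429). As the family members share sequence, cross-hybridisation between Scd1 and Scd2 probes was not tested.

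Elovl6, which lengthens palmitate, read 0.61, 0.51 and 0.71 in line 1 (control -0.02) and -0.30, -0.38 and -0.20 in line 2 (control -0.09). Fasn, the fatty acid synthase, read 0.48 with CHIR99021, -0.40 with VPA and -0.21 with both in line 1 (control -0.34), and -0.44, -1.16 and -0.69 in line 2 (control -0.52). For Fasn the lines were apart by only 0.03 at their nearest values. A dimmer second Fasn probe, well above background on 8 of 8 arrays, disagreed in part. It changed by 0.00 with VPA and 0.21 with both, beside -0.35 and -0.03 on the brightest probe. In the mean treated ratio, line 1 exceeded line 2 by 0.55 on the second probe and by 0.72 on the brightest. Acly, which makes cytosolic acetyl-CoA from citrate, read -0.60 and -0.90 with VPA (controls -0.27 and -0.32). Its change of -0.46 ± 0.18 (adjusted p = 0.162) passed with the replicate block (adjusted p = 0.0323).

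Comparisons between the treatments use no control ratio, and in them the lines came together. The median absolute difference between the lines over the 31 genes was 0.71, 0.60 and 0.54 in the 3 comparisons with control, beside 0.14, 0.18 and 0.19 over all genes. It was 0.13 for both compounds against CHIR99021 and 0.14 against VPA, beside 0.15 and 0.15 over all genes. Line 1 exceeded line 2 in 30, 27 and 26 of 31 genes against control (51.2%, 50.8% and 48.4% of all genes), and in 9 of 31 in each comparison between treatments (46.4% and 47.5%). The treated arrays of a line share its control RNA in Cy3, which cancels between treatments.

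When VPA was added to CHIR99021, 2 of 31 genes rose and 0 fell, against 6.21% and 3.81% of all genes (10% called; 4 members and 17.7% with the replicate block). Acacb rose by 1.96 ± 0.15 (adjusted p = 0.00198) and Insig2 by 0.66 ± 0.12 (adjusted p = 0.02), the latter lost in 7 of 17 alternative settings (adjusted p from 0.0126 to 0.121), among them without either control array, either CHIR99021 array or the combination array of line 1. Me1 read 1.34 ± 0.33 (adjusted p = 0.0504; 0.0383 with the replicate block) and Ebp -0.46 ± 0.15 (adjusted p = 0.11; 0.0286 with the block). When CHIR99021 was added to VPA, 0 of 31 passed by limma, against 1.12% of all genes (0.0883% rose, 1.03% fell), and 6 (19.4%) had an unadjusted p under 0.05, against 14.1%. The block called 3 members and 3.18% of all genes. Me1 read -1.80 ± 0.33 (adjusted p = 0.0665) and Acly 0.63 ± 0.18 (adjusted p = 0.181). With the replicate block Acly rose (adjusted p = 0.0372), and Me1 (adjusted p = 0.0446) and Acacb fell. The interaction of the compounds passed for 0 genes of all those tested by limma, with 511 (2.65%) at an unadjusted p under 0.05, of which 1 was a member (3.23% of the 31).

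In the brightness of each dye, normalised between arrays, the lines were further apart in control RNA than in treated RNA. This normalisation kept the ratios, so the step from control Cy3 to treated Cy5 largely restates the line difference in ratios. In Cy3 the control RNA of line 1 was dimmer than that of line 2 for 30 of 31 genes, by a median of -0.86 (log2), beside -0.03 over all genes. Control RNA in Cy5 gave -0.85, with 28 of 31 genes dimmer in line 1. Treated RNA in Cy5 gave -0.20, with 26 of 31 dimmer. Line 1 was dimmer by over 0.5, a limit set after the data were seen, for 24 of 31 genes in control Cy3 (6.83% of all genes), 23 in control Cy5 (8.03%) and 5 in treated Cy5 (4.67%). With each channel centred on its own median instead, the medians were -0.92, -1.05 and -0.41, and 30 of 31 genes were dimmer in line 1 in each.

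Scd1 showed this most clearly. Its control brightness in Cy3 was 9.31 ± 0.18 in line 1 and 12.16 ± 0.06 in line 2 (log2, SD of 4 arrays of 1 RNA), and in Cy5 9.16 and 12.09. With CHIR99021, VPA and both it was 11.15, 11.29 and 11.79 in line 1, and 12.21, 11.90 and 12.54 in line 2. The lines were thus 2.85 apart in control and 0.81 apart on average when treated. Insig2 was the exception among the 31 genes in Cy3, brighter in line 1 by 0.42 in control and 0.37 when treated. Each line had 1 control RNA on 1 slide, so a property of the line, of its control culture or of the slide cannot be told apart, and no test was made.

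**Figure D3:**
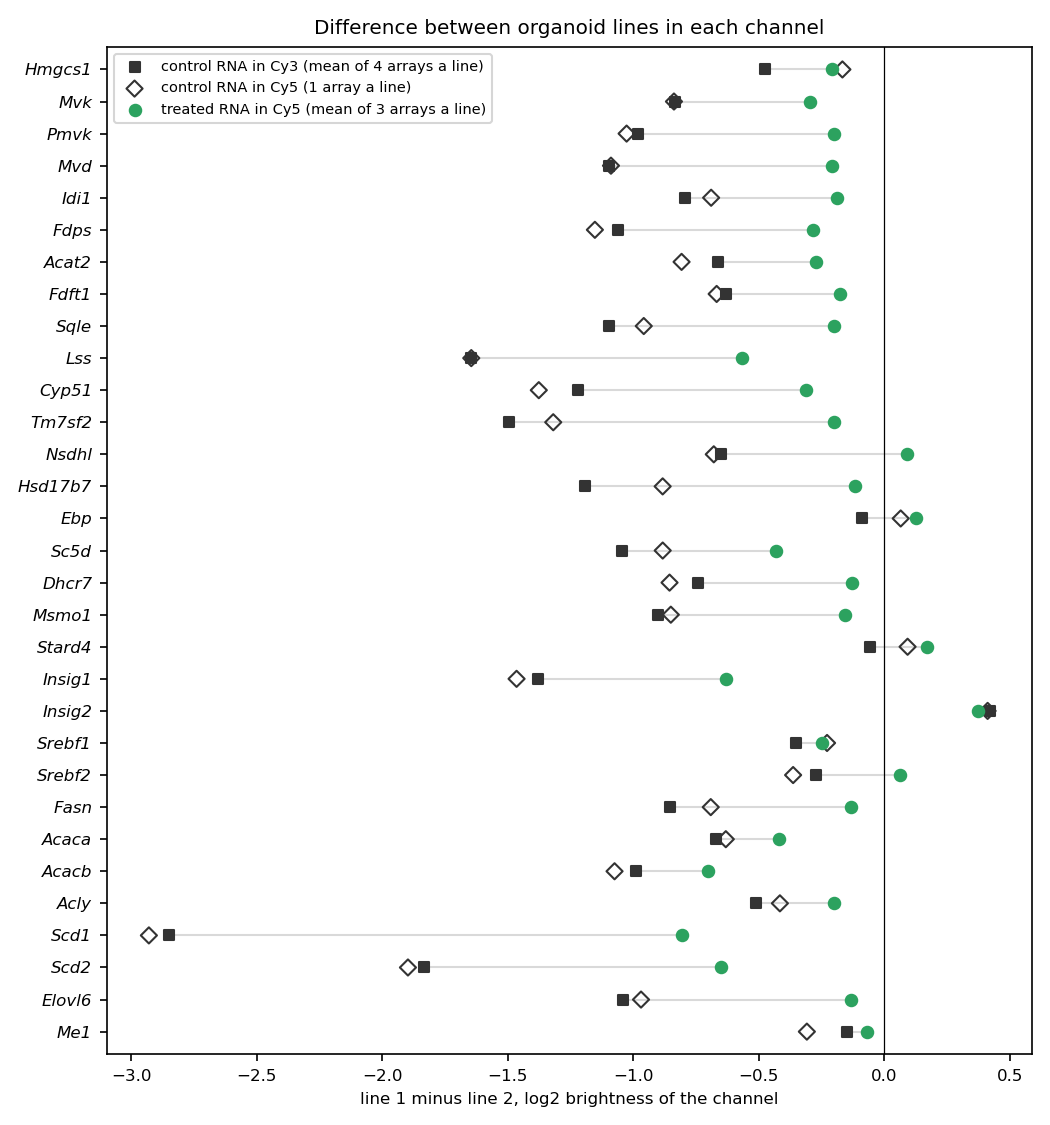
Brightness of line 1 minus line 2 (log2) for each of the 31 genes: squares are control RNA in Cy3 (mean of 4 arrays a line), diamonds control RNA in Cy5 (1 array a line) and circles treated RNA in Cy5 (mean of 3 arrays a line). Squares and diamonds lie near each other, with a median of -0.86 for squares, while the circles lie nearer 0, with a median of -0.20.

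Other genes of these pathways were read from lists. Of 12 other sterol synthesis genes tested, 2 (16.7%) had line 1 above line 2 and 2 (16.7%) the reverse, beside 9.59% and 9.2% of all genes tested. The genes named next as ordered by line were singled out after their values were seen. Of 25 other fatty acid genes 6 (24%) had line 1 above, among them the desaturase Fads1, and 1 (4%) the reverse. Of 20 genes of sterol uptake, storage and efflux 3 (15%) had line 1 above and 0 the reverse. Of 15 genes of SREBP processing and sterol sensing, 1 (6.67%) had line 1 above and 2 (13.3%) the reverse. Among 11 genes of NADPH supply, 2 (18.2%) had line 1 above and 3 (27.3%) the reverse, among them the mitochondrial malic enzymes Me2 and Me3. Of 17 glycerolipid genes 2 (11.8%) had line 1 above and 0 the reverse. With so few genes a list, 1 gene moves a share by 4 percentage points or more.

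Markers of other cell types were read beside this order. Tuft cell markers ran the other way: 3 of 5 (60%) had line 2 above line 1, beside 9.2% of all genes, with medians against control of -1.01, -1.30 and -1.91 in line 1 and -0.20, -0.30 and -0.52 in line 2. Dclk1, the kinase that marks tuft cells, read -1.34, -1.99 and -2.55 in line 1 and 0.01, 0.04 and -0.19 in line 2. Enterocyte, Paneth, goblet and enteroendocrine markers had 0 of 12, 0 of 6, 0 of 6 and 0 of 5 genes apart by line in either direction. The stem cell list had 1 of 9 (11.1%), and the fibroblast and immune list 1 of 7 (14.3%), with line 2 above. The part of tuft cell content in the order of the 31 genes was not tested.

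**Figure D4:**
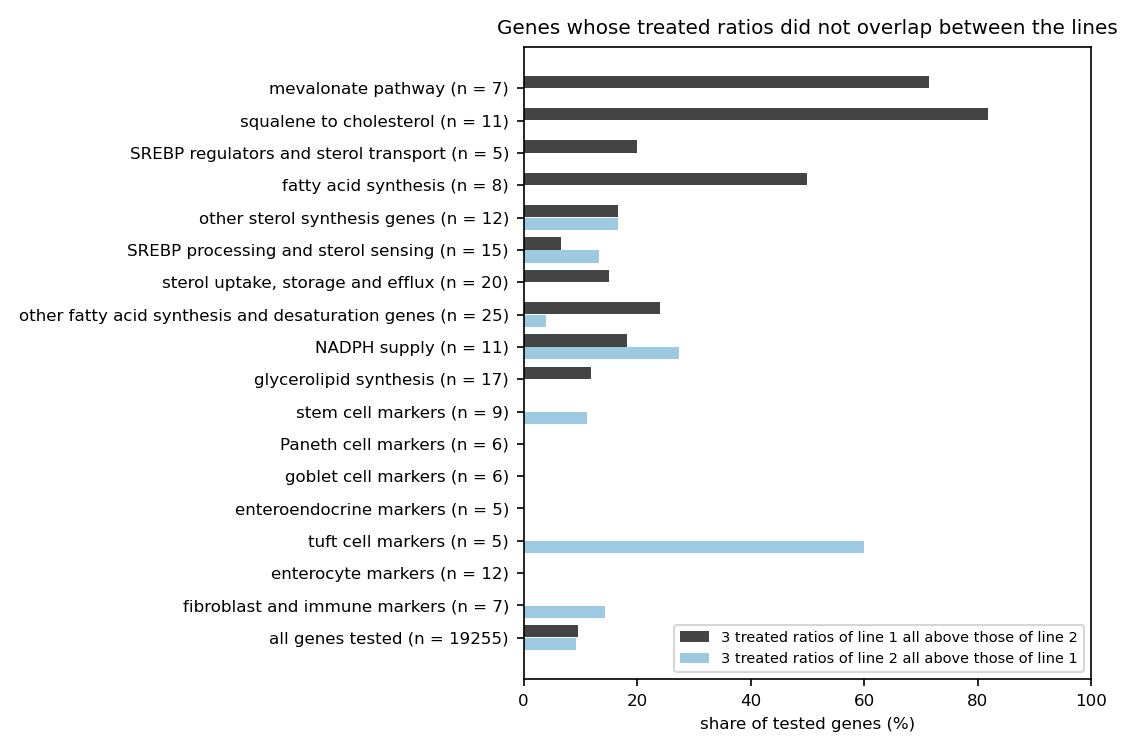
Share of the tested genes of each list (%) whose 3 treated ratios of line 1 all lay above those of line 2 (dark bars) or the reverse (light bars); n is the number of genes tested. The dark bars reach 81.8% from squalene to cholesterol and 71.4% in the mevalonate pathway, against 9.59% of all genes.

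Calls against control in the other lists are read beside the shares of all genes called, 1.12% for CHIR99021, 10.9% for VPA and 15.5% for the combination (2.89%, 19.4% and 25% with the replicate block). Of 12 other sterol synthesis genes, 0 rose and 2 fell with CHIR99021, 2 rose and 1 fell with VPA, and 0 rose and 2 fell with both. With the replicate block the combination had 1 risen and 3 fallen. Of 20 genes of sterol uptake, storage and efflux, 0, 1 and 3 rose and 1, 1 and 2 fell in the same order. With the block 3, 2 and 5 of these rose and 3, 2 and 3 fell. Several of these counts lie near the shares over all genes, such as 2 of 12 with both, and no list was tested as a whole.

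Soat2, which esterifies cholesterol in enterocytes, fell by 0.86 ± 0.09 with VPA and by 1.31 ± 0.09 with both. The related Soat1 went the other way and rose by 1.01 ± 0.18 with both. Scarb1, a lipoprotein receptor, rose by 0.74 ± 0.17 with VPA and by 1.28 ± 0.17 with both. Npc1l1, which takes up cholesterol from the gut, fell by 0.91 ± 0.09 with CHIR99021 (adjusted p = 0.0145) and by 0.57 ± 0.09 with both. Enterocyte markers were lower with CHIR99021, where 12 of 12 had negative values (median -1.70, 1 fell). They were also lower with both, where 11 of 12 did (median -1.56, 4 fell). With VPA, where Soat2 also fell, 6 of 12 markers had negative values (median 0.06, 1 fell). With the block 6, 1 and 6 of them fell and 0, 2 and 1 rose with CHIR99021, VPA and both. Alpi, the brush border alkaline phosphatase, read -1.58 ± 0.34 with CHIR99021 (adjusted p = 0.109; 0.0148 with the block) and 0.12 ± 0.34 with VPA, and fell by 1.68 ± 0.34 with both. The part of enterocyte content in the falls of these lipid genes was not tested.

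Of 15 genes of SREBP processing and sterol sensing, 0 rose in any of the 3 comparisons, and 0, 3 and 2 fell (1, 3 and 3 with the block). Nr1h3, the oxysterol receptor LXR alpha, fell by 1.13 ± 0.22 with VPA and by 1.66 ± 0.22 with both, and its partner Rxra fell by 0.51 ± 0.12 and 1.16 ± 0.12. Of 25 other fatty acid genes, 0, 3 and 3 rose (0, 3 and 6 with the block) and none fell. The acyl-CoA synthetase Acsl4 rose by 1.95 ± 0.39 and 2.36 ± 0.39 with VPA and both, and the elongase Elovl5 by 1.15 ± 0.25 and 1.35 ± 0.25. Of 11 NADPH supply genes, 1 rose and 1 fell, both with the combination: Idh2 rose by 0.75 ± 0.15 and Idh1 fell by 0.82 ± 0.19. With the block 1 further call was made with CHIR99021, a fall, and 1 with VPA, a rise.

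Of 17 glycerolipid genes, 0, 5 and 3 rose and 2, 0 and 2 fell, and with the block 0, 6 and 3 rose and 4, 1 and 3 fell. The acyltransferase Agpat4 rose by 2.27 ± 0.11 and 2.46 ± 0.11 with VPA and both, and the droplet protein Plin2 rose by 1.20 ± 0.15 with VPA. Dgat1, which completes triglycerides, fell by 1.28 ± 0.11 with CHIR99021 and by 1.34 ± 0.11 with both. Enterocyte markers were lower in these 2 comparisons, and the part of enterocyte content in the Dgat1 falls was not tested.

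Other cell type markers also moved with the compounds. Goblet cell markers had 0, 5 and 6 of 6 fallen with CHIR99021, VPA and both (medians -0.89, -1.43 and -2.72; 1, 5 and 6 with the block), and Tff3, a secreted goblet cell peptide, fell by 0.72 ± 0.15 with VPA and by 1.97 ± 0.15 with both. Of 5 enteroendocrine markers 0, 2 and 2 fell (medians -0.20, -2.48 and -2.73; 0, 3 and 3 with the block). Chga, a protein of hormone granules, read -2.51 ± 0.89 with VPA (adjusted p = 0.133; 0.013 with the block) and -2.73 ± 0.89 with both (0.0888; 0.00704 with the block). Of 6 Paneth cell markers 0, 1 and 2 fell (medians 0.46, -0.57 and -1.41), and 4 with both under the block, among them Lyz1, the Paneth cell lysozyme, at -1.24 ± 0.33 (adjusted p = 0.0501; 0.0293 with the block). Of 5 tuft cell markers 0, 0 and 1 fell, and 0, 2 and 4 with the block. Of 9 stem cell markers 0, 0 and 2 rose (medians 0.37, 0.12 and 0.41; 0, 2 and 3 with the block), and Lgr5, the Wnt-responsive stem cell receptor, read 0.90 ± 0.35 with CHIR99021 (adjusted p = 0.344). Of 7 fibroblast and immune markers 0, 1 and 1 rose (0, 2 and 3 with the block). The call without the block was Col1a1, a collagen chain, which rose by 0.79 ± 0.14 with VPA and by 1.01 ± 0.14 with both.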

How the data were processed

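The 8 organoid samples were measured on Agilent mouse arrays in 2 colours, per the labels. Per the file headers, Feature Extraction 10.5.1.1 read the spots, and the deposited intensity values are median spot and background brightness on a linear scale. Per the file headers, the log10 ratio is the software's background-subtracted, dye-normalised Cy5 over Cy3, and the deposited 0 or 1 flags (other columns) mark outliers, saturation and signal above background. The authors' series table holds log2 values of 19228 spots that equal this ratio turned to log2 within 5e-10, which settles its scale, direction and lack of centring. In the order control, CHIR99021, VPA and both, its medians were 0.0039, 0.017, -0.028 and -0.008 in line 1, and 0.0057, 0.036, -0.024 and -0.0027 in line 2. The sources used here do not give the authors' gene calling.

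From the deposited intensities, background was corrected with normexp (offset 50; limma 3.58.1, R 4.3.3) fitted without spots marked as outliers, a choice settled after data were seen. Ratios were loess-normalised within arrays (control and marked spots at weight 0), marked spots were left out and spots of a probe averaged. Of 41174 probes, 27479 were named through RefSeq (GRCm38.p6); the headers' build is mm9, so no probe coordinates are given. A gene was kept where some group had it well above background in Cy5 on both its arrays, and 79 lacked a value because of marked spots. All 4 groups were fitted together in limma (lmFit, eBayes; 4 residual and 2.68 prior degrees of freedom), with Benjamini-Hochberg adjustment and a threshold of 0.05. The script was tested on simulated data. Brightness per dye was normalised between arrays with limma's Aquantile.

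Per the labels, replicate numbers stand for organoid lines. Deviations from group means correlated across genes within a line (r from 0.122 to 0.755 over 6 pairs of groups). Pairs with the control group gave 0.122 to 0.245, and pairs of treated groups 0.551 to 0.755. Arrays of a line share control RNA and slide, so r alone cannot show that numbers pair the Cy5 samples. The block fit is given where it changes a member's call or moves a list's count. Alternatives were other background, normalisation, filter, probe and variance settings, and leaving out each array.

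Members and lists were chosen with earlier results of these data known. The rule for named genes took all 31 members, up to 4 called genes with the smallest adjusted p per list and comparison (not all are described), and the first measured gene of each marker list. Fads1, Me2, Me3, Aacs, Fads2, Lpin1, Pgd, Tmem97 and Acat1 fall outside it and were named after their values were seen. Some listed genes are not reported here. Of 198 listed genes, 17 were not tested.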

Additional observations from a re-analysis of the deposited data

Results flagged for a closer look

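In 19 of the pathway genes reported here, all treated arrays of 1 line lay above its control and all those of the other below. Over all 19255 genes tested, line 1 was the higher in 597 such genes and line 2 in 538. The difference between the lines was not tested. Values are the mean treated minus control ratio (log2) of line 1 minus that of line 2. Among the members, it was 0.56 for Acat2, 0.83 for Pmvk and 0.93 for Fdps in the mevalonate pathway. From squalene to cholesterol it was 0.60 for Fdft1, 0.87 for Sqle, 1.1 for Lss, 1.06 for Cyp51, 1.1 for Tm7sf2, 0.80 for Nsdhl and 0.77 for Msmo1. It was 0.81 for the regulator Insig1 and 0.83 for the elongase Elovl6.

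Outside the members, line 1 was higher by 0.65 for the acetoacetyl-CoA synthetase Aacs, 0.37 for the desaturase Fads2, 0.91 for the phosphatidate phosphatase Lpin1, 0.60 for the phosphogluconate dehydrogenase Pgd and 0.26 for the sterol-responsive membrane protein Tmem97. Acat1, the mitochondrial thiolase, and Me3, a mitochondrial malic enzyme, ran the other way, at -0.35 and -1.72.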

How the results depend on the processing

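No called value changed sign in any setting run. The Acacb calls held in all settings run. The count of 19 genes with line 1 above line 2 was 15 with median centring and 19 under the other processing settings. Without single treated arrays it was 19 to 24, but leaving out an array can only keep or raise this count, so that range does not show stability. With the replicate block, genes called numbered 557 (CHIR99021), 3745 (VPA) and 4815 (both) against control, and 3414 and 613 for both against CHIR99021 and VPA; members called were 6 (VPA), 5 (both), 4 and 3, and the block changed no member call other than those given above. With normexp fitted on all spots, CHIR99021 called 0 genes and both against VPA 28. Median centring gave 1129 with VPA (866 rose, 263 fell, against 1267 and 823) and 1155 for both against CHIR99021. Agilent's ratio gave 36 for CHIR99021, 34 for both against VPA and 1 member for both; without the dim filter that was also 1 member. A variance trend with robust fitting gave 85 for CHIR99021. With only the compared groups fitted, the counts were 1084 (CHIR99021), 290 with 1 member (both against CHIR99021) and 0 (both against VPA). Treated ratios tested against 0 gave 4305, 7022 (6 members) and 7792 (6 members). Without single arrays, calls ranged from 1 to 271 (CHIR99021), 120 to 2486 (VPA), 542 to 3248 (both), 287 to 2057 and 7 to 171 (both against CHIR99021 and VPA) and 0 to 1 (interaction), and members called from 1 to 3, 1 to 2, 1 to 2 and 0 to 1 in the 4 contrasts with VPA. Over the called member results, 93 values kept their call and 31 lost it. The number of arrays limits the precision.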
